A study of Mus musculus with 16 samples.

Results

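The suppressor of cytokine signaling (SOCS) family consists of CIS, the product of Cish, and of SOCS1 to SOCS7. Its 8 genes were taken from the table by their symbols, Socs1, Socs2, Socs3, Socs4, Socs5, Socs6, Socs7 and Cish, and all 8 were found among its 47069 genes. All 8 also passed the filter on low counts, which left 13211 genes to be tested. The genes were measured by RNA-seq of poly(A) RNA in bone marrow-derived macrophages (BMMs) grown from C57BL/6 mice aged 8 to 10 weeks. The BMMs were primed overnight with IFNγ (10 ng/mL) and activated for 1 hr with Salmonella LPS (100 ng/mL) together with immune complexes (ICs), which are ovalbumin coated with IgG. In the GSI group the cells also received DAPT (25 μM), an inhibitor of γ-secretase, the protease that releases the intracellular part of Notch receptors and that cuts other membrane proteins as well. In the DMSO group they received only the vehicle (0.01%). Each group had 2 libraries. IFNγ, LPS and ICs were common to both groups, and unstimulated BMMs were not analysed here, so the comparison shows how the family differed with GSI in activated BMMs and not how it responded to activation. A lower count per gene cannot tell fewer cells of a type from less RNA per cell in such bulk samples.

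SOCS proteins are feedback inhibitors of cytokine receptors that signal through Janus kinases and STAT transcription factors. Each has an SH2 domain, which binds phosphorylated tyrosines, and a SOCS box, which recruits elongins and cullin-5 so that bound proteins are tagged with ubiquitin. Several members are themselves STAT targets, so that a cytokine switches on its own brake, and SOCS1 and SOCS3 are known for limiting IFNγ and IL-6 responses in macrophages.

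The promoters of the members with the highest levels are shown because they hold letters known as binding motifs of the factors that act on this family. RefSeq promoter windows (GRCm38.p6, 250 bases before and 50 bases after the start) were at hand for 4 members, Socs1, Socs3, Socs4 and Cish. They were searched on both strands for a STAT motif (TTCNNNGAA), a STAT motif with a longer gap (TTC and GAA with any 4 bases between them), the RBPJ motif of Notch signaling (TGGGAA) and an IRF motif (GAAA and GAAA with any 2 bases between them). The capitals mark the matches. In Socs1 these are 1 RBPJ motif and, closer to the start, 2 IRF motifs that overlap each other, in Socs3 they are 1 STAT motif, and in Cish they are 2 STAT motifs just after the start. Starts are those of RefSeq. For Cish and Socs3 they lie inside the gene spans of GENCODE given further on, which reach further upstream, and for Socs1 the start is the end of that span. The sequences are chr16:10785537-10785786 (minus strand) for Socs1, chr11:117969367-117969616 (minus strand) for Socs3 and chr9:107296654-107296683 (plus strand) for Cish, each given 5′ to 3′.
Socs1: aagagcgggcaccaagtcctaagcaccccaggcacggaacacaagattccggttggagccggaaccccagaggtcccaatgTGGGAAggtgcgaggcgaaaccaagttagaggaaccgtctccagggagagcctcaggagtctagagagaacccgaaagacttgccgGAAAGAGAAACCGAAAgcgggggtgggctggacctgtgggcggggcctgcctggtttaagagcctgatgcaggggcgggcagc
Socs3: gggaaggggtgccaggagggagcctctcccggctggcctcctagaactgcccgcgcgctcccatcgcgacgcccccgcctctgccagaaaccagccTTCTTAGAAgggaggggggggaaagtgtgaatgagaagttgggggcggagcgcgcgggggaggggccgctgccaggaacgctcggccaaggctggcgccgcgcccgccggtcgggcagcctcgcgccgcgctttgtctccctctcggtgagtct
Cish: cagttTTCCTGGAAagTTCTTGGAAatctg
The STAT motif of Socs3 lay at -154 to -146 relative to the start, and those of Cish at 1 to 9 and 12 to 20. The RBPJ motif of Socs1 lay at -169 to -164 and its IRF motifs at -83 to -74 and -77 to -68. Of all 32851 windows of this length, 8.30% held a STAT motif and 0.457% held at least 2, 6.95% held the longer STAT motif, 25.6% held the RBPJ motif, and 3.44% held an IRF motif and 0.225% at least 2. The window of Socs4 held none of these 4 motifs. A match of letters describes the sequence and is not a measured binding site.

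The DMSO libraries totalled 42694655 and 56932059 counts and the GSI libraries 48483661 and 49511733, each the sum of 4 columns whose differences were near the sampling noise. The labels do not define these columns, which were read here as sequencing runs of 1 replicate, and n = 2 rests on this reading. A count of 0 then allows up to 0.0527 to 0.0703 CPM (counts-per-million), a limit that covers counting error only. The labels do not say that the replicates came from separate mice or cultures, and p-values measure only the spread between these libraries. Macrophage markers summed to 12625 and 12829 CPM with DMSO and to 9864 and 10770 CPM with GSI, and 6 of the 9 tested were lower with GSI and 1 higher. Csf1r, the receptor for the macrophage growth factor M-CSF, had 2191 and 2391 CPM with DMSO and 1407 and 1706 CPM with GSI, and Adgre1, which encodes F4/80, had 1100, 1152, 848 and 1011 CPM in the same order. Among markers of other cells, the 11 granulocyte genes summed to at most 0.582 CPM, with Elane, Prtn3 and Retnlg at 0, and the 6 mast cell genes were at 0 in all libraries. The 9 T and NK cell genes summed to 2.53 and 2.36 CPM with DMSO and 7.45 and 6.62 CPM with GSI. Nearly all of this was Cd247, Lck and Cd4, while Cd3d, Cd3e, Cd8a and Klrb1c had at most 0.0405 CPM and Cd3g and Ncr1 were at 0. The 6 dendritic cell genes summed to 188 and 181 CPM against 115 and 117 CPM, most of it Clec9a, with Siglech at 0. B cell genes summed to 2.56 to 4.36 CPM, erythroid genes to at most 0.0405 CPM and stromal genes to at most 0.162 CPM. The part of these markers in the results below was not tested. Hes1, the classical Notch target, held 5, 2, 1 and 5 counts and was too low to be tested.

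Of the 8 members, 4 differed between GSI and DMSO with an FDR under 0.05. Cish, Socs5 and Socs7 were lower with GSI and Socs1 was higher. Of all genes tested, 40.8% were called (21.9% lower and 19.0% higher), so that 4 of 8 is near the background and the count is no result about the family. The median log2 fold change was -0.04 over the 8 members and 0.01 over all tested genes, and the median absolute change was 0.16 and 0.24. No member passed an absolute log2 fold change of 1.5 as well, as 2.91% of all genes did. The groups did not overlap in 4 of the 8 members and in 70.6% of all tested genes.

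**Figure D1:**
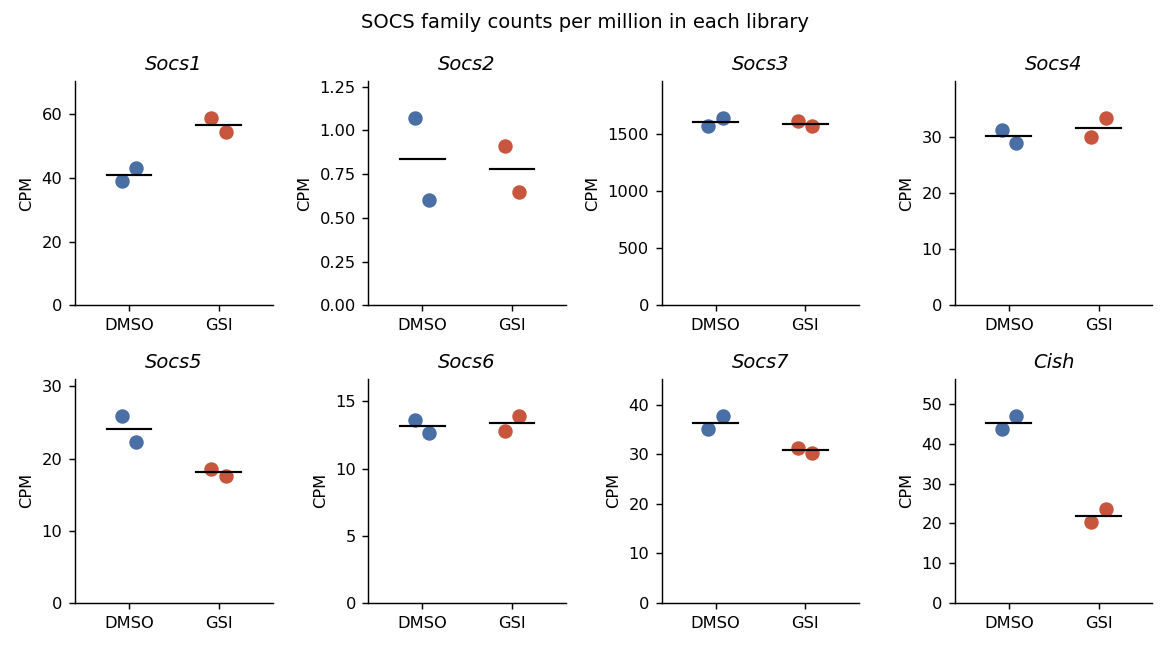
CPM of each SOCS family gene in the 2 DMSO (blue) and 2 GSI (red) libraries, with a bar at each group mean and a vertical axis of its own starting at 0 in each panel. The groups are apart in Socs1, Socs5, Socs7 and Cish and overlap in Socs2, Socs3, Socs4 and Socs6.

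Cish had the largest change of the family. CIS, its product, binds activated cytokine receptors and is a classical target of STAT5 downstream of IL-2, IL-3 and GM-CSF. Cish (ENSMUSG00000032578, chr9:107296026-107302784, plus strand, GRCm38) had 43.7 and 47.0 CPM with DMSO and 20.3 and 23.6 CPM with GSI. Both GSI libraries lay far under both DMSO libraries. The group means were 45.4 ± 2.32 and 21.9 ± 2.39 CPM (SD, n = 2 each). The log2 fold change was -1.05 (standard error 0.0854, 95% interval -1.23 to -0.87), with an FDR of 6.30e-09 in edgeR's quasi-likelihood test after Benjamini-Hochberg adjustment. A larger fall was found in 560 of the 13211 genes. When each library was left out in turn, the log2 fold change of Cish stayed between -1.16 and -0.94. Cish was also the only member to share exon bases with genes on the other strand, 740 bases or 11.5% of its exons, with Gm17040 and Gm17041. These held 1, 5, 2 and 4 counts and 9, 7, 0 and 0 counts in the 4 libraries, each at most 0.478% of the counts of Cish in the same library.

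Socs1 was the only member that rose. SOCS1 binds and inhibits Janus kinases directly and is best known as the brake on IFNγ signaling. Socs1 (ENSMUSG00000038037, chr16:10782240-10785536, minus strand) had 39.0 and 43.2 CPM with DMSO and 58.7 and 54.5 CPM with GSI, and the groups did not overlap. The group means were 41.1 ± 2.94 and 56.6 ± 3.00 CPM (SD, n = 2 each). Socs1 thus rose 1.38-fold (95% interval 1.23-fold to 1.54-fold), or by 0.46 on the log2 scale (standard error 0.0776), with an FDR of 7.46e-05 in the edgeR fit. Of all genes tested, 1388 had a higher log2 fold change. The value ranged from 0.39 to 0.53 when each library was left out.

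Socs3 was by far the most abundant member and did not pass the test. SOCS3 acts on receptors with the gp130 chain, such as that of IL-6, and is a classical STAT3 target that IL-10 and LPS induce in macrophages. Socs3 (ENSMUSG00000053113, chr11:117966079-117970047, minus strand) had 1567 and 1634 CPM with DMSO and 1608 and 1571 CPM with GSI. Both GSI libraries lay within the range of the DMSO libraries. Its log2 fold change was -0.01 with a 95% interval from -0.16 to 0.14, so changes outside 0.893-fold to 1.10-fold lay outside the interval (FDR = 0.927 in the edgeR fit).

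Socs2, which encodes a brake on growth hormone signaling, was the least abundant member. Socs2 (ENSMUSG00000020027, chr10:95385362-95417180, minus strand) held 46 and 34 counts in the DMSO and 44 and 32 counts in the GSI libraries, or 1.07, 0.599, 0.910 and 0.648 CPM. The groups overlapped. Its log2 fold change of -0.06 had a 95% interval from -0.70 to 0.57, the widest of the family, which leaves changes between 0.617-fold and 1.49-fold inside the interval (FDR = 0.893 in the edgeR fit).

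The other 4 members, Socs4 to Socs7, encode proteins with long N-terminal regions. Their coding sequences hold 436, 536, 533 and 579 codons in the order of their names, against 212 for Socs1, 198 for Socs2, 225 for Socs3 and 257 for Cish. SOCS4 and SOCS5 are known for acting on the EGF receptor, and SOCS6 and SOCS7 for binding receptor tyrosine kinases and insulin receptor substrates.

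Socs5 (ENSMUSG00000037104, chr17:87107679-87137839, plus strand) had 25.9 and 22.3 CPM with DMSO and 18.6 and 17.6 CPM with GSI, with both GSI libraries under both DMSO libraries. The group means were 24.1 ± 2.52 and 18.1 ± 0.664 CPM (SD, n = 2 each), and Socs5 fell by 0.41 on the log2 scale (standard error 0.0899), with an FDR of 0.00104 in the edgeR fit. The log2 fold change ranged from -0.52 to -0.30 when each library was left out. Its closest relative Socs4 (ENSMUSG00000048379, chr14:47276931-47296102, plus strand) had 31.3 and 29.0 CPM with DMSO and 30.0 and 33.3 CPM with GSI. Here the groups overlapped, with a log2 fold change of 0.07 (95% interval -0.10 to 0.24, FDR = 0.515). There were 0.828 and 0.771 counts of Socs5 for each count of Socs4 with DMSO and 0.620 and 0.530 with GSI. This ratio is a description and was not tested.

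Socs7 (ENSMUSG00000038485, chr11:97362551-97398542, plus strand) had 35.1 and 37.7 CPM with DMSO and 31.4 and 30.3 CPM with GSI. The groups did not overlap, but lay close together. Its log2 fold change of -0.24 (95% interval -0.40 to -0.08, standard error 0.0774, FDR = 0.0176 in the edgeR fit) was the smallest of the called members and the only call of the family that rested on single libraries. Without DMSO replicate 2 it was -0.19 with an FDR of 0.159, and without GSI replicate 2 it was -0.21 with an FDR of 0.0760, both from the edgeR fit with 3 libraries. Socs6 (ENSMUSG00000056153, chr18:88665224-88927481, minus strand) had 13.6 and 12.7 CPM with DMSO and 12.8 and 13.9 CPM with GSI. The groups overlapped, and the log2 fold change was 0.03 (95% interval -0.17 to 0.22, FDR = 0.854).

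**Figure D2:**
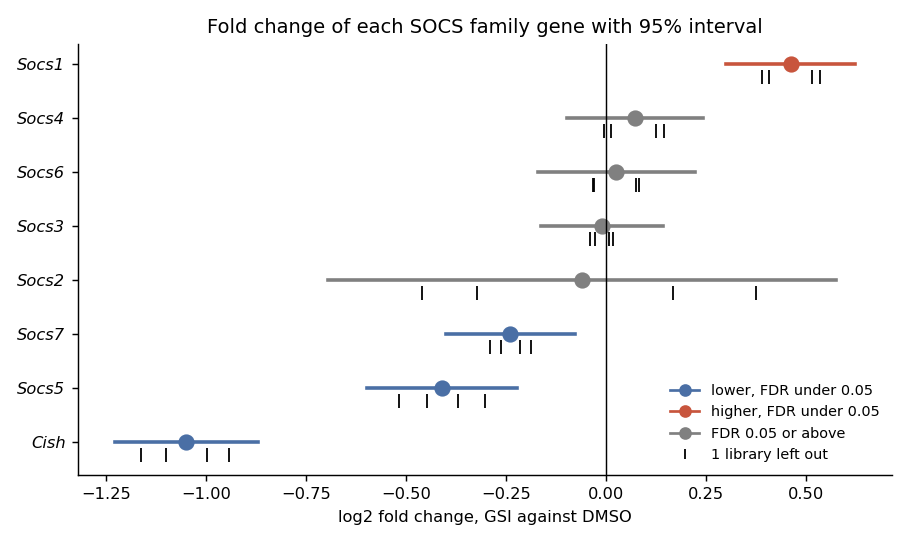
Log2 fold change (GSI against DMSO) of the 8 SOCS family genes from edgeR, with dots for the fit on 4 libraries, horizontal lines for 95% intervals and ticks under each dot for the fits that left out 1 library. Cish at -1.05 and Socs1 at 0.46 stand at the ends, and the intervals of Socs2, Socs3, Socs4 and Socs6 include 0.

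Levels of different genes were compared per length, as RPKM (the CPM of a gene per kilobase of its exons). The order over the 4 libraries was Socs3, Socs1, Cish, Socs7, Socs4, Socs5, Socs6 and Socs2. Socs3 averaged 552 RPKM (range 542 to 565), 32.8-fold more than Socs1 at 16.8 RPKM (range 13.4 to 20.2). Among 13165 tested genes with a known length, Socs3 was number 78 from the top, and 80.5% of the genes had a lower level than Socs1. Then came Cish with a mean of 5.24 RPKM (range 3.16 to 7.33), Socs7 with 4.63 RPKM (range 4.18 to 5.19) and Socs4 with 4.49 RPKM (range 4.21 to 4.84). These were close to the middle of all genes, since 58.5%, 55.8% and 55.1% of the tested genes lay under them. The ranges of Cish and Socs7 overlapped, as did those of Socs7 and Socs4, while all other neighbours in the order were apart. Socs5 averaged 3.29 RPKM, Socs6 1.17 RPKM and Socs2 0.0846 RPKM (range 0.0629 to 0.112), and only 4.04% of the tested genes lay under Socs2.

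The order of the middle members differed between the groups. Cish was the third member in both DMSO libraries, with 6.81 and 7.33 RPKM, and the fifth in both GSI libraries, with 3.16 and 3.68 RPKM. Socs4 took the opposite places, and the other members kept theirs in all 4 libraries. Of the mean levels, 5 members kept their place when DMSO replicate 2 was left out. With the length of the longest transcript in place of all exons, 6 members kept their place, and Socs5 (0.683% of the summed RPKM of the family) and Socs4 (0.675%) changed places. With that length Cish was the third member in both DMSO libraries (9.31 and 10.0 RPKM) and the fifth in GSI replicate 1 (4.31 RPKM), but it stayed the third in GSI replicate 2 (5.03 RPKM, with Socs4 at 4.84 and Socs7 at 4.32), so its place in the GSI group depends on the length used. Socs2 stayed the last member in all 4 libraries, with 0.141 to 0.252 RPKM by the length of the longest transcript.

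**Figure D3:**
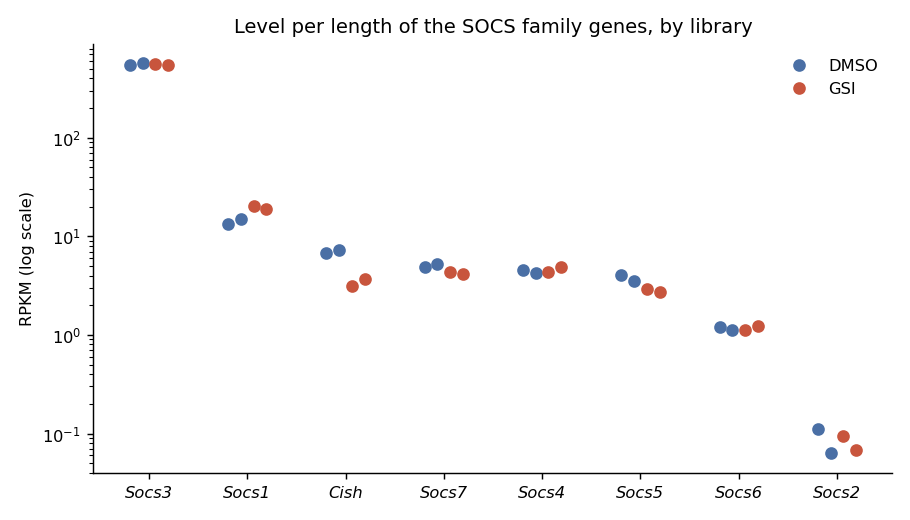
Level per length (RPKM, log axis) of each SOCS family gene in the 2 DMSO (blue) and 2 GSI (red) libraries, ordered by mean. Socs3 lies 32.8-fold over Socs1, Cish lies above Socs7 with DMSO and below it with GSI (with the longest transcript as length, below it in GSI replicate 1 only), and Socs2 lies under 0.2 RPKM in all libraries. With the longest transcript as length, Socs2 had 0.252 RPKM in DMSO replicate 1 and 0.215 RPKM in GSI replicate 1.

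Socs3 made up 93.9% of the summed RPKM of the family in both groups, with 93.87% to 93.98% over the libraries. The make-up of the rest differed. With Socs3 left out, Socs1 held 38.4% and 41.0% of the sum with DMSO and 55.9% and 52.8% with GSI. Cish went the other way, from 19.5% and 20.2% to 8.73% and 10.4%. In direct ratio, there were 0.892 and 0.918 counts of Socs1 for each count of Cish with DMSO and 2.90 and 2.31 with GSI. For each count of Socs3 there were 0.0249 and 0.0264 counts of Socs1 with DMSO and 0.0365 and 0.0347 with GSI, against 0.0279 and 0.0288 counts of Cish with DMSO and 0.0126 and 0.0150 with GSI. These ratios follow from the changes given above and were not tested.

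**Figure D4:**
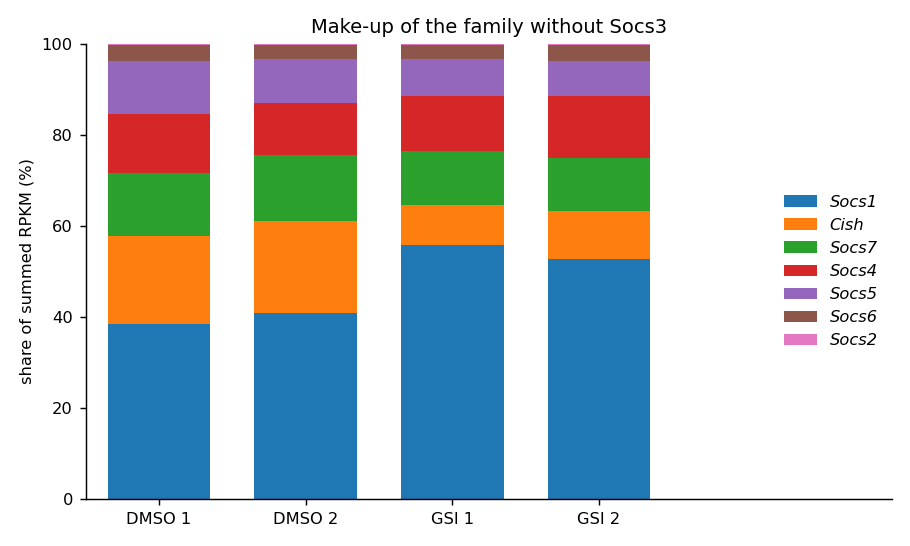
Share of each member in the summed RPKM of the family without Socs3 (percent, stacked from 0 to 100) in each of the 4 libraries. The Socs1 segment grows from 38.4% and 41.0% with DMSO to 55.9% and 52.8% with GSI, and the Cish segment shrinks from 19.5% and 20.2% to 8.73% and 10.4%.

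The genes whose pattern was most like that of the 3 most abundant members by CPM were found by the Euclidean distance of log2 CPM, centred on each gene, over the 4 libraries. For Cish these were Nrm, Tpbg and Gdpd5, with distances of 0.0197, 0.0549 and 0.0592, and 21 genes lay within 0.1. For Socs1 they were Nyap2, Mapk7 and Daxx, with distances of 0.00791, 0.0341 and 0.0379, and 73 genes lay within 0.1. Nyap2 averaged only 1.46 CPM and was not called (FDR = 0.0745 in the edgeR fit). Socs3, which hardly varied, had 808 genes within 0.1, with Suds3, Stx11 and Ptpn1 the nearest. With 4 libraries in 2 groups, such a pattern is mostly the size of the difference between the groups.

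The other genes of the pathway were described with 9 lists, in the order of their place around the SOCS proteins. For each, the count of called genes is to be read against the 21.9% lower and 19.0% higher of all tested genes, and a list's share says nothing on its own of the list.

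Upstream of the family are the cytokines whose receptors it restrains. Of 20 such genes 13 were tested, and 8 were lower, 1 was higher and 4 did not pass, with a median log2 fold change of -0.38. Csf2, which encodes GM-CSF, a cytokine that activates STAT5, fell by 2.07 on the log2 scale, with means of 3.73 ± 0.768 CPM with DMSO and 0.883 ± 0.419 CPM with GSI (SD, n = 2 each). Its GSI mean lay under the 1 CPM asked of named genes. The log2 fold change of Csf2 ranged from -2.65 to -1.65 when each library was left out. Il10, a cytokine that activates STAT3, fell by 1.81 on the log2 scale from a mean of 333 ± 33.7 CPM with DMSO (SD, n = 2). Ifnb1, which encodes interferon β, was the gene that rose, by 1.23 on the log2 scale, with means of 11.6 ± 2.07 and 27.5 ± 0.584 CPM (SD, n = 2 each). Without GSI replicate 2, 5 cytokine genes were lower. Of 31 receptor genes 25 were tested, and 8 were higher and 7 lower, with a median of 0.05. Il23r, a chain of the IL-23 receptor, rose by 3.09 from 0.225 ± 0.0555 CPM to 1.98 ± 0.0443 CPM (SD, n = 2 each) and reached the mean of 1 CPM asked of named genes only through the GSI libraries. Il15ra rose by 0.87, and Lifr, the receptor of LIF, fell by 1.21 on the log2 scale.

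Of the 11 Janus kinases and STAT factors, 7 were lower, 1 was higher and 3 did not pass, with a median log2 fold change of -0.21 and a range from -0.92 to 0.37, the latter for Stat2, which is named after its value was seen. Stat5a encodes a form of STAT5, the factor known to switch on Cish. It fell by 0.92 on the log2 scale, with means of 39.8 ± 3.47 CPM with DMSO and 21.0 ± 0.332 CPM with GSI (SD, n = 2 each) and an FDR of 2.35e-08 in the edgeR fit. Stat5b, which encodes the other form and is named after its value was seen, fell by 0.24 on the log2 scale. Its means were 44.4 ± 0.458 CPM with DMSO and 37.7 ± 1.47 CPM with GSI (SD, n = 2 each). The part of the STAT5 genes in the change of Cish was not tested. Stat4 fell by 0.82 and Jak2, a kinase of the GM-CSF and IFNγ receptors, fell by 0.52. Without DMSO replicate 1, 4 of these genes were lower and 5 were called in all. Of 14 other brakes on the pathway (phosphatases, PIAS proteins and the like), 6 were lower and 2 higher, with a median of -0.04. The genes that rose were Isg15 (0.79 on the log2 scale), a ubiquitin-like modifier, and Usp18 (0.71), which restrains the type I interferon receptor. Isg15 was listed with the brakes, but whether it acts as one in these cells was not tested. Ptprc, which encodes the phosphatase CD45, fell by 0.43.

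The ubiquitin ligase that the SOCS box recruits was described by 13 genes, some of them, such as Cul2, from related cullin ligases. Of these 13 genes, 5 were higher and 2 lower, with a median log2 fold change of 0.16. Cul5, the cullin-5 gene, did not pass, with a log2 fold change of -0.03 (FDR = 0.786 in the edgeR fit). Rnf7, which encodes a RING protein, rose by 0.25. Cul2, Cul5 and Rnf7 are named after their values were seen. Rbx1, a RING protein of cullin ligases, rose by 0.51 and Tceb2, the elongin B gene, rose by 0.41, while Arih2, a ligase that works with cullin-5, fell by 0.77. Without DMSO replicate 2, 3 were higher. Other proteins with a SOCS box, outside the family, were represented by 28 genes, of which 18 were tested. In the quasi-likelihood fit of edgeR 9 of them were higher and 0 lower, with 11 and 0 at an unadjusted p under 0.05 and a median of 0.26, and DESeq2 called 4 higher and 0 lower. Spsb2, a SPRY domain protein, had a log2 fold change of 0.44 and Rab40c, a small GTPase, 0.40. Neurl2 had 0.36 with an FDR of 0.0431, which was 0.173 with DESeq2, 0.203 without DMSO replicate 1 and 0.315 without GSI replicate 2. In the fits without DMSO replicate 1 and without GSI replicate 2, 1 gene of this list was lower.

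Downstream of the receptors are genes that STAT factors switch on. Of 16 STAT3 target genes, 7 were lower and 1 higher, with a median log2 fold change of -0.17. Myc, which drives growth, fell by 1.37 on the log2 scale, with means of 47.3 ± 3.86 and 18.3 ± 0.129 CPM (SD, n = 2 each), and Bcl3, a partner of NF-κB p50, fell by 0.48. Cebpd had a log2 fold change of 0.47 with an FDR of 0.0122, which was 0.0701 with DESeq2, 0.106 without DMSO replicate 2 and 0.148 without GSI replicate 1. Without DMSO replicate 2, 5 genes of the list were called in all. Without GSI replicate 2, 2 were higher. Of 12 STAT5 target genes, 6 were lower and 0 higher with edgeR's quasi-likelihood test (7 and 0 at an unadjusted p under 0.05, and 7 and 0 with DESeq2), with a median of -0.23. Osm, which encodes oncostatin M, fell by 1.08 on the log2 scale, with means of 77.9 ± 4.34 and 36.9 ± 7.69 CPM (SD, n = 2 each). The D-type cyclin genes Ccnd2 and Ccnd1 fell by 0.65 and 0.55 on the log2 scale. These lists share genes. Osm is also a cytokine of the first list, and Bcl6 (lower) and Pim1 (not called) are in both target lists. Il4ra (lower) is in the STAT3 target list and in the receptor list. Bcl6, Pim1 and Il4ra are named after their values were seen.

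Last, 12 of 15 genes for adaptors and kinases that SOCS proteins bind were tested, and 6 were lower and 1 higher, with a median log2 fold change of -0.18. Irs2, an insulin receptor substrate, fell by 1.14, Map3k5, which encodes the kinase ASK1, fell by 0.74, and Tirap, the adaptor of TLR4 that SOCS1 marks for degradation, fell by 0.66 on the log2 scale. The single higher gene, Kit (0.83 on the log2 scale), which is named after its value was seen, was not called with 16 separate runs, without DMSO replicate 1, without GSI replicate 1 or with DESeq2. The Notch receptor genes themselves, Notch1 and Notch2, fell by 0.64 and 0.41, while Dtx4 and Rbpj, the other tested genes of the Notch pathway list, named after their values were seen, did not pass, with log2 fold changes of 0.05 and 0.01. Of the list genes named, Neurl2, Spsb4, Cebpd, Tirap, Csf1r, Ccnd1, Ccnd2, Notch1, Pim1 and Il4ra share over 300 exon bases with a gene on the other strand. The strand setting of the counting is not given in the sources used here.

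**Figure D5:**
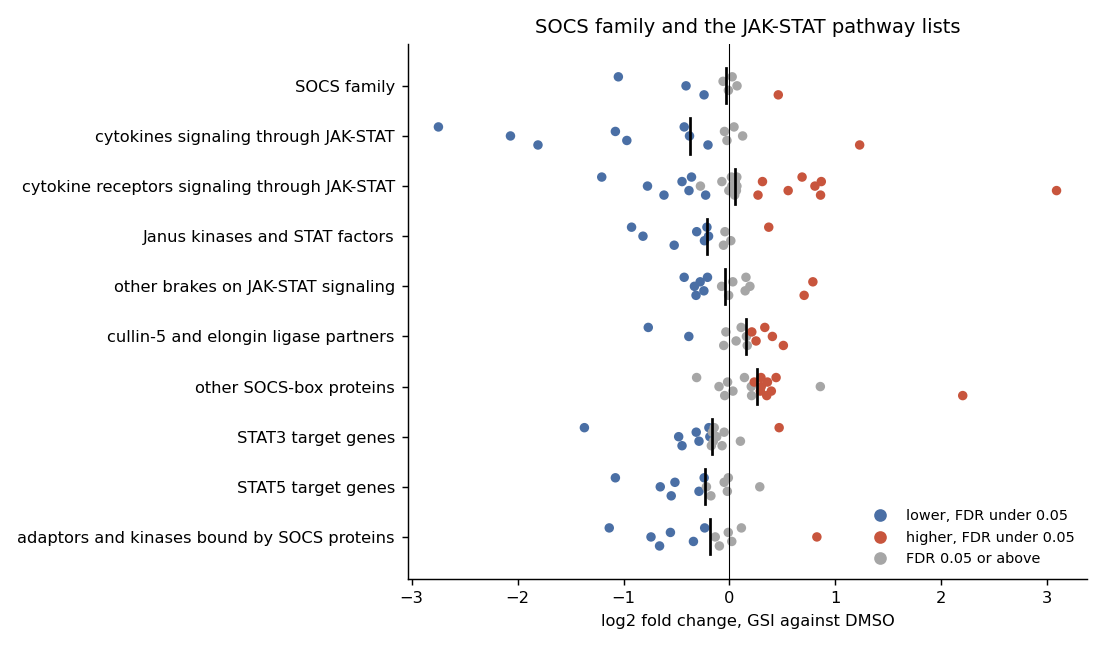
Log2 fold change (GSI against DMSO) of each tested gene of the SOCS family and of the 9 pathway lists, blue for lower and red for higher with an FDR under 0.05, gray for other genes, with a vertical bar at each list's median. The medians run from -0.38 for cytokines to 0.26 for other SOCS-box proteins, with -0.04 for the SOCS family, and the outermost points include Csf3 (-2.75) and Spsb4 (2.20), which average under 1 CPM and are given here after their values were seen.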

How the data were processed

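The authors prepared strand-specific libraries (NextSeq 500), trimmed reads with Trimmomatic, aligned them with STAR (version 2.5.0a per the submitters' processing notes) to mm10 (GRCm38) and used HTSeq for counting. They deposited unnormalized counts of reads on each Ensembl gene, in 16 columns. The methods place DAPT or DMSO overnight before activation, and legends of other experiments a shorter pretreatment.

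Titles tied each column to its sample, and the 4 columns of each replicate, taken as its sequencing runs because they differed by little more than sampling noise although the labels do not define them, were summed to give 4 libraries. Genes were tested with edgeR 4.0.16 (R 4.3.3; filterByExpr, TMM, glmQLFit, glmQLFTest, group as factor) on the whole table, with Benjamini-Hochberg adjustment (FDR) over 13211 genes. CPM used TMM-adjusted library sizes. RPKM used the exon union of GENCODE M21, which held 98.8% of the gene IDs. The scripts were tested on simulated data. Alternatives were a replicate block, DESeq2 1.42.0, scaling by RLE or by library totals alone, no filter on low counts, a minimum of 10 counts per library, 16 separate runs, genes without exons on the other strand, the longest transcript as length, and leaving out each library. In a fit without 1 library, the lone library of a group was assumed to vary like the other group.

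The members and lists were chosen with earlier results of these data known. Named in each list were the 3 genes with the largest absolute log2 fold change among those with an FDR under 0.05 and a mean of at least 1 CPM, with all 8 members, the nearest patterns, Hes1, Adgre1 and Csf1r. Kit, Stat2, Stat5b, Cul2, Cul5, Rnf7, Bcl6, Pim1, Il4ra, Dtx4, Rbpj, Csf3, Spsb4 and other marker genes were named after their values were seen. Elob and Eloc were matched by no symbol, and Tceb2 stands for the former. A further list of target genes is not reported here.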

Additional observations from a re-analysis of the deposited data

How the results depend on the processing

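The 4 member calls were kept with DESeq2, with RLE or no normalization factors, with either filter and with 16 separate runs, and the median of all genes moved by less than 0.01 (log2) under each. Without genes that share exons across strands, which leaves out Cish, 3573 genes of the table were called, 1665 higher and 1908 lower, on fewer genes tested. With 16 runs as separate samples, 3896 genes were higher, but runs are not replicates. Leaving out each library gave -0.46 to 0.37 for Socs2, -0.042 to 0.018 for Socs3, -0.0051 to 0.15 for Socs4 and -0.033 to 0.083 for Socs6, none of them called, and -0.29 to -0.19 for Socs7, whose call was lost without replicate 2 of either group. The number of members at the same rank of RPKM was 5 to 8 then. The labels share only replicate numbers, with 2 pairs and a correlation of 0.155 between replicate differences of the groups over 13211 genes. With the replicate number as a block, the log2 fold changes of Cish, Socs1, Socs5 and Socs7 were -1.05, 0.46, -0.41 and -0.24, all called, and 6444 genes were called. Socs2 had the fewest counts, 32 to 46 in a library, and how depth and replicate spread share in its wide interval was not tested.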
